A study of Mus musculus with 8 samples.

Results

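The genes of the creatine and calcium futile cycles were examined in brown adipose tissue (BAT) of control and tumour-bearing mice. They are 10 genes chosen by symbol from the 56953 genes of the count table as routes of heat production that do not need UCP1, the uncoupling protein of brown fat. On the creatine side they are Ckb, Ckmt2, Gatm, Gamt, Slc6a8 and Alpl, and on the calcium side Atp2a1, Atp2a2, Ryr1 and Ryr2. The study asked what cancer-associated cachexia, the wasting that accompanies a tumour, does to BAT.

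RNA-seq libraries were made from 4 CTR and 4 CAC samples of mouse BAT, 1 for each sample. All mice carried the WT genotype on the C57BL/6J strain, were male or female by the group description, were 8 to 10 weeks old and were housed at 21 °C. CAC mice had received 3000000 LLC cells (Lewis lung carcinoma, a mouse tumour line) under the skin of the right flank and CTR mice PBS alone, and per the study's methods they were followed for 21 days, with injected mice lacking a tumour left out. The labels do not tie a sample to its own animal or sex, so the p-values measure the spread between these samples. The labels name no engineered allele and no other agent.

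In the creatine cycle, creatine kinase at the mitochondria moves phosphate from ATP to creatine, a phosphatase there removes it again, and the net result is ATP use and heat. In the calcium cycle, SERCA pumps spend ATP to load calcium into the sarcoplasmic or endoplasmic reticulum, and ryanodine receptors let it leak back out. Both cycles are known from beige and brown fat, and several of the proteins have their main role in striated muscle, where the same calcium release and reuptake drives contraction.

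The tissue label was checked against 12 brown adipocyte markers, all of which passed the low-count filter, with a summed level of 16718 to 19322 CPM (counts scaled to a common total of 1000000 per library) over the 8 libraries. Libraries held 1823167 to 4827956 counts, of which mitochondrially encoded genes took 28.5% to 33.8%. At this depth 3 counts, the limit that a count of 0 allows for counting error alone, stand for 0.66 to 1.62 CPM. Reads of sarcomere genes were present in every library: 27 of these genes summed to 2175, 3828, 4877 and 1929 CPM in CTR replicates 1 to 4 and to 3857, 6506, 7432 and 6670 CPM in CAC replicates 1 to 4. The cells these reads came from were not tested. The neutrophil list summed to 12.0 to 15.2 CPM in CTR and 174 to 444 CPM in CAC.

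Of the 10 genes, 8 passed the low-count filter and were tested, and Gatm and Ryr2 did not. None of the 8 passed edgeR's quasi-likelihood test of CAC against CTR at an adjusted p of 0.05, against 0.932% of all 9876 tested genes (92 genes), and DESeq2, which called 1.11% of genes, called 0 of the 8 as well. At an unadjusted p under 0.05 there were 2, Atp2a1 and Ryr1, both higher in CAC, against 12.9% of all tested genes in either direction and 7.01% in this one. The fitted log2 fold changes were positive for 4 genes and negative for 4, with a median of 0.02. The groups of 4 libraries overlapped for each of the 10 genes, whereas 7.04% of all tested genes had no overlap.

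**Figure D1:**
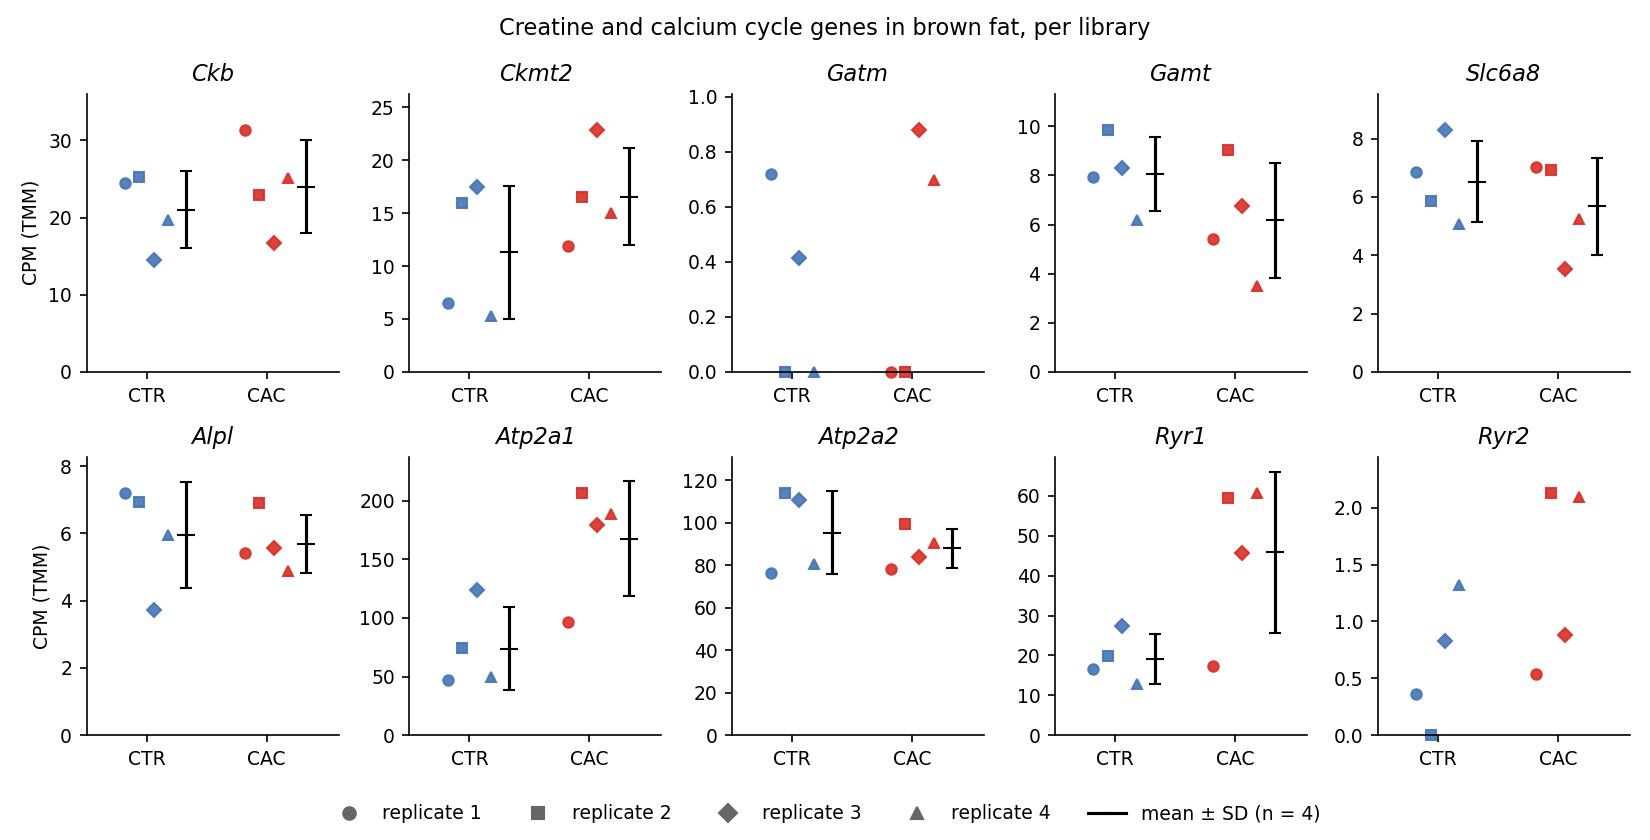
CPM of each gene in the 4 CTR (blue) and 4 CAC (red) libraries, with marker shapes for the replicate number and black bars for mean ± SD (n = 4), which are left out for the 2 genes below the filter. Atp2a1 reached 206 CPM and Ryr1 60.7 CPM in CAC, with CAC replicate 1 the lowest of its group for both, and the groups of every gene overlapped.

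The promoters are shown for the 3 genes that also belong to muscle, Atp2a1, Ryr1 and Ckmt2, and for Ckb, the other kinase, because their levels over the libraries are set apart further on. The RefSeq table used here (GRCm38.p6) matched 8 of the 10 genes with 9 promoters, each of 250 bases before and 50 bases after a transcript start. All 4 genes lie on the minus strand and the sequences are written 5′ to 3′ on it, from chr7:126463024-126463323 for Atp2a1, chr7:29125102-29125401 for Ryr1, chr13:91876836-91877135 for Ckmt2 and chr12:111672289-111672588 for Ckb. Capitals mark CAGCTG in Atp2a1 and Ckmt2, GGGCGG in Ryr1 and CTANNNNTAG in Ckb.
Atp2a1: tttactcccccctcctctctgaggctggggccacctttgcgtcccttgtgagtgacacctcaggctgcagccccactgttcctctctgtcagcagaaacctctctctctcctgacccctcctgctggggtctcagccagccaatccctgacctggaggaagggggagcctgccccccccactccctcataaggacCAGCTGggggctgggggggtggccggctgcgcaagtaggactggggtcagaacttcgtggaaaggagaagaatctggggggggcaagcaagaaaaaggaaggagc
Ryr1: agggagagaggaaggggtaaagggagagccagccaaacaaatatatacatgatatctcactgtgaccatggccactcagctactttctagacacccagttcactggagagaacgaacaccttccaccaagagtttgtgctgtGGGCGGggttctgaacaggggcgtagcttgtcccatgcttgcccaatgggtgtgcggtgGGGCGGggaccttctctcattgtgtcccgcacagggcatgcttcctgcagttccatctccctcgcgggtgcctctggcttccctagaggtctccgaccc
Ckmt2: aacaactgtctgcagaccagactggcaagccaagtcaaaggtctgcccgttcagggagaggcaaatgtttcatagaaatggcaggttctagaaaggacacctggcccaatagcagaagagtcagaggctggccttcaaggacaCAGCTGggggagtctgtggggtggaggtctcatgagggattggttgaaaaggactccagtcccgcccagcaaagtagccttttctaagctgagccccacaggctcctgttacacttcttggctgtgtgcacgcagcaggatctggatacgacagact
Ckb: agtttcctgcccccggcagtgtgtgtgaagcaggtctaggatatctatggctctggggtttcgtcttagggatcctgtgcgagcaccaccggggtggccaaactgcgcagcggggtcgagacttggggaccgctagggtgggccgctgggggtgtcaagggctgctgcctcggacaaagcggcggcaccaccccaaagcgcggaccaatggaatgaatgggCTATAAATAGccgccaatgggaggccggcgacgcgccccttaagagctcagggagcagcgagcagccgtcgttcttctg

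On both strands, 7 motifs were searched: the E-box CANNTG, its form CAGCTG, the TATA box TATAAA, the MEF2-like CTANNNNTAG, the GC box GGGCGG, the ERR half-site AAGGTCA and the CRE TGACGTCA. CAGCTG began 55 bases upstream of the start in Atp2a1, 107 bases upstream in Ckmt2 and 176 bases upstream at 1 of the 2 Alpl promoters, and 16.3% of 32851 RefSeq promoters of this length hold it. Ryr1 had GGGCGG at 108 and 49 bases upstream, which 35.7% of promoters hold, and no CANNTG in this window, which 72.3% hold. GGGCGG was found on either strand in 5 of the 9 promoters. Besides Ryr1 these were of Alpl, Gamt, Ryr2 and Ckmt2, where CCGCCC, not marked above, began 46 bases upstream. In Ckb a CTANNNNTAG match began 29 bases upstream and contains the TATAAA match at 28 bases, motifs held by 3.7% and 13.6% of promoters. TATAAA also matched, as TTTATA, 192 bases upstream at 1 of the 2 Alpl promoters. AAGGTCA and TGACGTCA, held by 4.7% and 1.8%, had no match in the 9 promoters. A match of letters is a description and not a measured binding site.

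Among the creatine kinases, Ckb, the brain-type enzyme that is also found at the mitochondria of brown fat, lies at chr12:111669361-111672338 (GRCm38). Its level was 24.5, 25.3, 14.5 and 19.6 CPM in CTR replicates 1 to 4 and 31.4, 22.9, 16.7 and 25.1 CPM in CAC replicates 1 to 4. The groups overlapped throughout, and replicate 3 was the lowest of each group. The CTR mean was 21.0 ± 4.98 CPM and the CAC mean 24.0 ± 6.05 CPM (SD, n = 4), and the fitted log2 fold change was 0.15 ± 0.20 (SE) with an edgeR adjusted p of 0.806. An interval of 2 SE on either side runs from -0.24 to 0.55.

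Ckmt2, the sarcomeric mitochondrial creatine kinase, lies at chr13:91853387-91876885. CTR libraries had 6.48, 16.0, 17.4 and 5.29 CPM, and CAC libraries 11.9, 16.5, 22.9 and 15.0 CPM. CTR replicates 1 and 4, the libraries with the lowest sarcomere sums, were the lowest of the 8. The log2 fold change was 0.63 ± 0.39 (SE) with an edgeR adjusted p of 0.552, and 2 SE on either side run from -0.15 to 1.4.

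Creatine is made by Gatm, which forms guanidinoacetate from arginine and glycine, and Gamt, which methylates it. Gatm (chr2:122594467-122611303) had 2, 0, 1 and 0 counts in CTR and 0, 0, 3 and 2 counts in CAC. No library exceeded 3 counts, so a difference was not detectable at this depth (exact two-sided permutation p = 0.829 on CPM, n = 4 per group). Gamt (chr10:80258151-80261012) gave 7.92, 9.85, 8.30 and 6.17 CPM in the CTR libraries and 5.41, 9.04, 6.74 and 3.49 CPM in the CAC libraries. CAC replicates 1 and 4 lay below the lowest CTR library and CAC replicate 2 near the top of CTR. Its log2 fold change was -0.40 ± 0.28 (SE, edgeR adjusted p = 0.578), with 2 SE on either side from -0.96 to 0.15.

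Uptake runs through Slc6a8, the creatine transporter of the plasma membrane, at chrX:73673150-73682502 and the only gene of the 10 on the plus strand. The CTR levels were 6.84, 5.86, 8.30 and 5.07 CPM and the CAC levels 7.03, 6.91, 3.52 and 5.23 CPM. Only CAC replicate 3 fell outside the CTR range, below it. The log2 fold change was -0.23 ± 0.28 (SE, edgeR adjusted p = 0.798).

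Alpl (chr4:137741733-137796384), the tissue-nonspecific alkaline phosphatase that removes phosphate from phosphocreatine in this cycle, was at 7.20, 6.92, 3.73 and 5.95 CPM in CTR. CAC libraries had 5.41, 6.91, 5.57 and 4.88 CPM, all inside the CTR range. Its log2 fold change was -0.11 ± 0.27 (SE, edgeR adjusted p = 0.919), and 2 SE on either side run from -0.65 to 0.44. Alpl is also expressed by neutrophils. Of the 11 genes of the neutrophil list 4 were tested and 3 called higher, S100a8, S100a9 and Retnlg, against 0.739% of all tested genes. S100a9 and Retnlg had at most 2.52 and 2.07 CPM in CTR and passed the low-count filter through their CAC levels. For them a call was close to implied by being tested, so these shares are not alike. S100a8 at 175 and S100a9 at 73.5 CPM made up most of the list's mean of 278 CPM in CAC, and other cells can express both. Mmp9 was not called by edgeR (0.66 on the log2 scale, adjusted p = 0.286). The other 7 were too low to be tested, and all 11 had a higher mean in CAC. Among the 7, Cxcr2 was at 0 in every CTR library and at 1.08 to 2.66 CPM in CAC, Ngp at 0 to 0.41 and 1.62 to 2.64 CPM, and Mmp8 at 0 to 0.36 and 0.53 to 2.16 CPM, while Ly6g and Camp were at 0 in CTR and at most 0.54 and 1.47 CPM in CAC. The part of neutrophil RNA in the Alpl level was not tested. Counts of Gamt, Slc6a8 and Alpl were between 9 and 37 per library, which limits the precision of these 3 genes.

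The calcium pump Atp2a1 encodes SERCA1, the pump of fast skeletal muscle, and lies at chr7:126445858-126463108. Levels of 46.8, 74.6, 124 and 49.8 CPM were measured in CTR and of 96.2, 206, 179 and 188 CPM in CAC. CAC replicates 2, 3 and 4 lay above every CTR library, and CAC replicate 1 lay below CTR replicate 3. The mean level was 73.7 ± 35.5 CPM in CTR libraries and 168 ± 48.8 CPM in CAC libraries (SD, n = 4). The log2 fold change of 1.20 ± 0.40 (SE) had an unadjusted p of 0.0213 and an edgeR adjusted p of 0.28, short of a call. With the replicate number as a block it was 1.24 with an edgeR adjusted p of 0.0181, a call, although the numbers did not pair the samples. That fit called 140 genes.

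Other annotated genes overlap 5 of the 10 genes, and 2 of them, Atp2a1 and Atp2a2, hold fractions of reads. The counts of Atp2a1 cannot be told apart from those of another gene. Rabep2, which encodes an effector of Rab5 in endosomes, lies on the plus strand at chr7:126428759-126449245, so the 3′ part of Atp2a1 on the minus strand overlaps it, with 763 exonic bases in common. The deposited counts of Atp2a1 were 130.5, 280, 298 and 226.5 in CTR and 178, 387.5, 612.5 and 540 in CAC, and those of Rabep2 were 130.5, 277, 301 and 227.5 in CTR and 181, 390.5, 607.5 and 536 in CAC. The difference was at most 5 counts, or 1.69%, in any library, and the values ended in a fraction of a read in the same 4 libraries for both genes. The log2 fold change of Rabep2 was 1.20 with an edgeR adjusted p of 0.28, and its Pearson r with Atp2a1 over the 8 libraries exceeded that of every other tested gene. The strand setting of the counting is not given in the sources used here. Were all of these reads from Atp2a1, its level would be the sum of both, 93.6 to 248.6 CPM in CTR and 194 to 414 CPM in CAC.

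**Figure D2:**
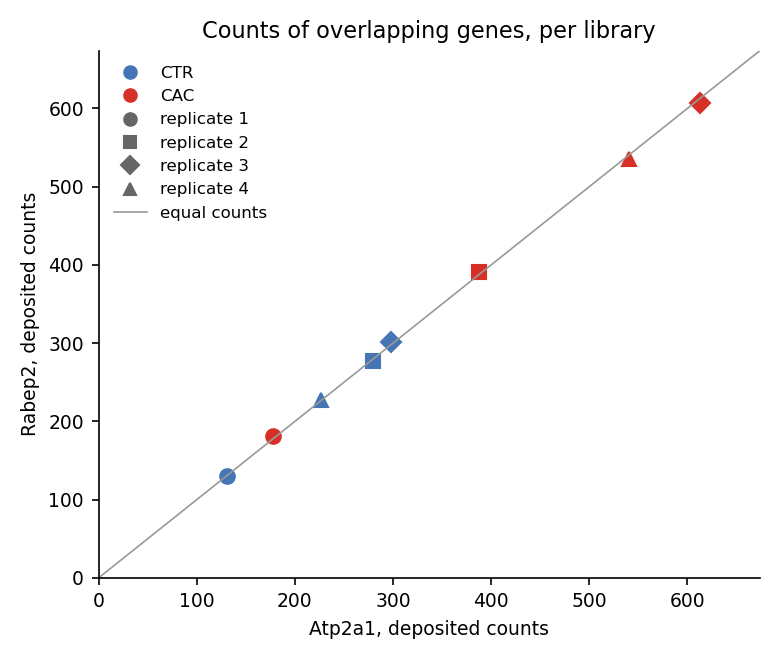
Deposited counts of Atp2a1 (horizontal) and of Rabep2 (vertical) in the 4 CTR (blue) and 4 CAC (red) libraries, with marker shapes for the replicate number and a grey line for equal counts. All 8 points sit on the line within 5 counts, from 130.5 counts in CTR replicate 1 to 612.5 and 607.5 counts in CAC replicate 3.

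Atp2a2 encodes SERCA2, the pump of slow muscle, heart and most other cells, and the SERCA2b form is the one tied to the calcium cycle of beige fat. It lies at chr5:122453513-122502225, and its forms are not separated in a count per gene. Its level was 76.3, 114, 111 and 80.7 CPM in CTR and 78.4, 99.4, 83.8 and 90.6 CPM in CAC. All CAC libraries fell inside the CTR range. The log2 fold change was -0.12 ± 0.13 (SE, edgeR adjusted p = 0.779), and 2 SE on either side run from -0.38 to 0.15, the narrowest interval among the 8 tested genes.

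Of the release channels, Ryr1, the ryanodine receptor of skeletal muscle, lies at chr7:29003344-29125179. CTR libraries held 16.6, 20.0, 27.4 and 12.8 CPM and CAC libraries 17.3, 59.6, 45.7 and 60.7 CPM. As with Atp2a1, CAC replicates 2, 3 and 4 lay above every CTR library and CAC replicate 1 lay inside the CTR range. The log2 fold change was 1.31 ± 0.41 (SE) with an unadjusted p of 0.0156 and an edgeR adjusted p of 0.253. Without CAC replicate 1 it was 1.56 and Ryr1 was called, with an edgeR adjusted p of 0.000676 against 1.26% of genes called in that fit, so 1 library decides the call.

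Ryr2 (chr13:11553102-12106945), the ryanodine receptor of the heart, had 1, 0, 2 and 6 counts in CTR and 1, 4, 3 and 6 counts in CAC. These are 0 to 1.32 CPM and 0.54 to 2.13 CPM, which overlap, and the exact two-sided permutation p was 0.171 (n = 4 per group). Of 7 cardiac muscle markers none passed the filter, Nppb and Myl7 were at 0 in all 8 libraries, and the list summed to 0.54 to 5.86 CPM. In bulk tissue, fewer cells of a type and less RNA per cell cannot be told apart for any of these genes.

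Levels of different genes were set side by side on 2 scales. Per kilobase of exon, the mean level over the 8 libraries was 34.7 ± 18.4 for Atp2a1 and 15.1 ± 2.42 CPM per kb for Atp2a2 (SD, n = 8). Ckmt2 followed at 9.37 and Ckb at 7.77 CPM per kb, and Ckmt2 was the higher of these in 5 of 8 libraries. Gamt was at 4.93 CPM per kb. Ryr1 at 1.49, Alpl at 1.44 and Slc6a8 at 1.17 CPM per kb lay close together, with Ryr1 above Alpl in 4 of 8 libraries and Alpl above Slc6a8 in 6 of 8. On this scale the place of Ryr1 differed by group: its mean in CTR was 0.88 ± 0.28 CPM per kb, below Alpl at 1.48 ± 0.39 and Slc6a8 at 1.25 ± 0.27, and in CAC 2.10 ± 0.92 CPM per kb, above Alpl at 1.41 ± 0.21 and Slc6a8 at 1.09 ± 0.32 (SD, n = 4). Gatm at 0.11 and Ryr2 at 0.04 CPM per kb were lowest. Without division by length, the means were 121 CPM for Atp2a1, 91.8 for Atp2a2, 32.5 for Ryr1, 22.5 for Ckb, 13.9 for Ckmt2, 7.11 for Gamt, 6.09 for Slc6a8 and 5.82 CPM for Alpl. Ryr1, with 21838 exonic bases, thus lay above Ckb, Ckmt2 and Gamt in mean CPM and below them per kb, and Ckb and Ckmt2 also changed places. These means pool groups that differ: in CTR alone Ryr1 at 19.2 ± 6.21 was below Ckb at 21.0 ± 4.98 CPM, and in CAC at 45.8 ± 20.2 above it at 24.0 ± 6.05 CPM (SD, n = 4). In CTR alone Atp2a1 at 73.7 ± 35.5 was also below Atp2a2 at 95.4 ± 19.7 CPM, and in CAC at 168 ± 48.8 above it at 88.1 ± 9.09 CPM. This change of order depends on how reads are divided between Atp2a1 and Rabep2. With the counts of both added, the log2 ratio to Atp2a2 was 0.29 to 1.16 in CTR, above Atp2a2 in every CTR library. Division by length assumes reads spread evenly over the exons, and the counts of Atp2a1 go against this: they equal those of Rabep2 within 5 counts, although the genes share only 763 of the 3477 exonic bases of Atp2a1. Per the study's methods the libraries came from a Digital mRNA-seq service, and the part of a transcript its reads cover is not given there. The order of Ryr1, Ckb and Ckmt2, and that of Slc6a8 and Alpl, is therefore not settled by these data, while Atp2a1 and Atp2a2 had the highest means over the 8 libraries on both scales.

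Atp2a1, Ryr1 and Ckmt2 were set against the sarcomere genes of the same library, since muscle also expresses them. All 27 sarcomere genes were tested and had positive log2 fold changes, with a median of 0.88, against a median of 0.00 over all tested genes. Of these, 3 were called higher by edgeR, as were 0.739% of all tested genes: Actn3, an actin crosslinker of fast fibres, at 1.63 ± 0.24 (SE, adjusted p = 0.0148), Mybpc2, the fast myosin-binding protein C, at 1.38 ± 0.19 (adjusted p = 0.000279), and Myoz1, a Z-disc protein, at 1.12 ± 0.22 (adjusted p = 0.046). The median was 1.05 over the 11 fast sarcomere genes and 0.59 over the 6 slow ones, of which 0 were called. By an unadjusted p under 0.05, 11 of the 27 were higher, among them 7 of the 11 fast genes and 0 of the 6 slow ones, against 7.01% of all tested genes, a share at which 0 of 6 is not below the background. DESeq2 called 5 of the 27. The 27 genes were read from the same 8 libraries, so their shared direction is not 27 separate results. Their summed CPM overlapped between the groups, up to 4877 in CTR and from 3857 in CAC (exact two-sided permutation p = 0.0571, n = 4 per group). With the log2 sarcomere sum as a covariate, edgeR did not call Actn3, Mybpc2 or Myoz1 (adjusted p = 0.144, 0.297 and 0.521). Their log2 fold changes in that fit were 1.18, 0.87 and 0.41 (edgeR unadjusted p = 0.000581, 0.00361 and 0.0432). The sum contains these genes themselves, and 0.253% of all tested genes were called in that fit, so the lost calls do not show that the differences were absent.

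From library to library the 3 muscle-shared genes followed the sarcomere sum. Atp2a1 had a Pearson r of 0.974 with the log2 sarcomere sum over the 8 libraries (exact permutation p = 0.00057, 0.00456 after adjustment over the 8 tested genes) and a Spearman rho of 0.881 (exact p = 0.00724, adjusted 0.029). Ckmt2 had r = 0.928 (exact p = 0.00223, adjusted 0.00648) and rho = 0.786 (exact p = 0.0279, adjusted 0.0745). For Ryr1 r was 0.910 (exact p = 0.00243, adjusted 0.00648) and rho 0.905 (exact p = 0.00456, adjusted 0.029). The other 5 genes had r between -0.34 and 0.40, with adjusted exact p-values of 0.644 or more.

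Leaving out the 2 libraries farthest from the median of the sarcomere sum, CTR replicates 1 and 4, gave r = 0.949 for Atp2a1 and 0.939 for Ryr1 over 6 libraries, each with an adjusted exact p of 0.106. For Ckmt2 r fell to 0.643 with an adjusted exact p of 0.459. With 6 libraries over a narrower range of the sum, this cannot decide whether its relation held without both libraries. Leaving out only CTR replicate 1 or only CTR replicate 4 gave r = 0.90 and 0.88 for Ckmt2. With the slow sarcomere genes alone its r was 0.961 (adjusted exact p = 0.000992) and rho 0.976 (adjusted exact p = 0.00317) over the 8 libraries. These correlations ignore the groups, which differ in both measures, and gene and sum share the library and its scaling. With both measures centred on their group means, an alternative chosen after seeing the data, r over the 8 libraries was 0.946 for Atp2a1 (exact permutation p = 0.0208 over 576 orders within groups), 0.943 for Ckmt2 (exact p = 0.0122) and 0.819 for Ryr1 (exact p = 0.0139), each with an adjusted exact p of 0.0556, short of the threshold of 0.05. Centred rho was 0.690, 0.952 and 0.762 in the same order, with adjusted exact p-values of 0.194, 0.111 and 0.118. For Atp2a2 the centred r was 0.846 (exact p = 0.0851, adjusted 0.17), against 0.40 without centring. CAC replicate 1 and CTR replicate 2 held nearly the same sarcomere sum, 3857 and 3828 CPM. Between these libraries Atp2a1 was at 96.2 and 74.6 CPM, Ryr1 at 17.3 and 20.0 CPM, and Ckmt2 at 11.9 and 16.0 CPM.

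**Figure D3:**
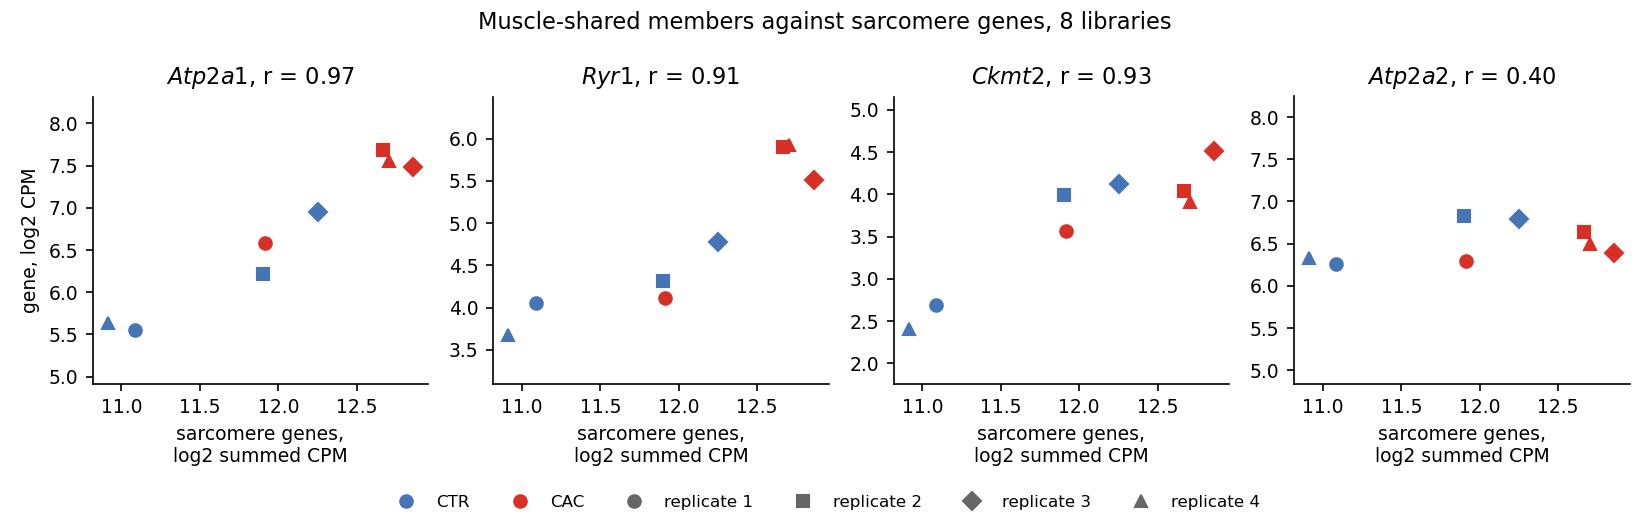
Log2 CPM of Atp2a1, Ryr1, Ckmt2 and, for contrast, Atp2a2 (vertical) against log2 of the summed CPM of 27 sarcomere genes (horizontal) in 4 CTR (blue) and 4 CAC (red) libraries, with marker shapes for the replicate number and equal vertical spans. The first 3 genes climb with the sarcomere sum (r = 0.974, 0.910 and 0.928), and Atp2a2 varies little along it (r = 0.396). Centred on the group means, r was 0.846 for Atp2a2 and 0.819 for Ryr1, so the contrast in r was not seen within groups. An r does not measure how far a gene varies. Atp2a2 ran from 76.3 to 114 CPM in CTR and 78.4 to 99.4 CPM in CAC, and Ryr1 from 12.8 to 27.4 and 17.3 to 60.7 CPM.

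Relative to the sarcomere genes of its own library, Atp2a1 gave 21.5, 19.5, 25.4 and 25.8 reads per 1000 sarcomere reads in CTR and 24.9, 31.7, 24.1 and 28.2 in CAC. The groups overlapped, and the log2 ratio differed by 0.24 (exact two-sided permutation p = 0.171, n = 4 per group), against 1.20 for the unscaled level. Ryr1 gave 7.61, 5.22, 5.62 and 6.63 reads per 1000 in CTR and 4.48, 9.15, 6.15 and 9.09 in CAC, a log2 difference of 0.16 (exact p = 0.6). Here CAC replicate 1 was the lowest of the 8 libraries and CAC replicates 2 and 4 the highest. Ckmt2 gave 2.98, 4.17, 3.57 and 2.74 reads per 1000 in CTR and 3.08, 2.53, 3.08 and 2.25 in CAC, a log2 difference of -0.30 (exact p = 0.171) in the direction opposite to its level. With 1 library left out, the difference ran from 0.16 to 0.30 for Atp2a1, from 0.023 to 0.36 for Ryr1 and from -0.39 to -0.19 for Ckmt2. Against the mean log2 CPM of the sarcomere genes in place of their sum, it was 0.37 for Atp2a1 (exact p = 0.0571), 0.27 for Ryr1 (exact p = 0.314) and -0.20 for Ckmt2 (exact p = 0.286). The smallest p that 70 assignments of 4 against 4 allow is 0.0286.

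With the log2 sarcomere sum as a covariate in edgeR, the log2 fold changes were 0.24 for Atp2a1 (adjusted p = 0.729), 0.29 for Ryr1 (adjusted p = 0.818) and -0.56 for Ckmt2 (adjusted p = 0.588), and 25 of all tested genes (0.253%) were called in that fit. For Atp2a2 the log2 fold change in that fit was -0.48 with an unadjusted p of 0.00943 and an edgeR adjusted p of 0.376. Ckb was at 0.51 (adjusted p = 0.612), Gamt at -0.75 (adjusted p = 0.604), Slc6a8 at -0.30 (adjusted p = 0.869) and Alpl at 0.12 (adjusted p = 0.952) in the same edgeR fit. The sarcomere sum and the group move together, so the share of each in these values cannot be told apart.

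Ratios within a library were compared for 6 pairs, with p-values adjusted over the 6. The pump ratio of Atp2a1 to Atp2a2 reads was -0.70, -0.61, 0.16 and -0.69 on the log2 scale in CTR and 0.29, 1.05, 1.10 and 1.05 in CAC. The groups did not overlap, although CTR replicate 3 and CAC replicate 1 lay near each other and apart from the rest of their groups. The difference of 1.34 had an exact two-sided permutation p of 0.0286, the smallest this design can give, and 0.171 after adjustment, short of a call. With the counts of Rabep2 added to Atp2a1, an alternative chosen after seeing the data, the difference was 1.34 and the ratios shifted to 0.29 to 1.16 in CTR and 1.30 to 2.09 in CAC.

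**Figure D4:**
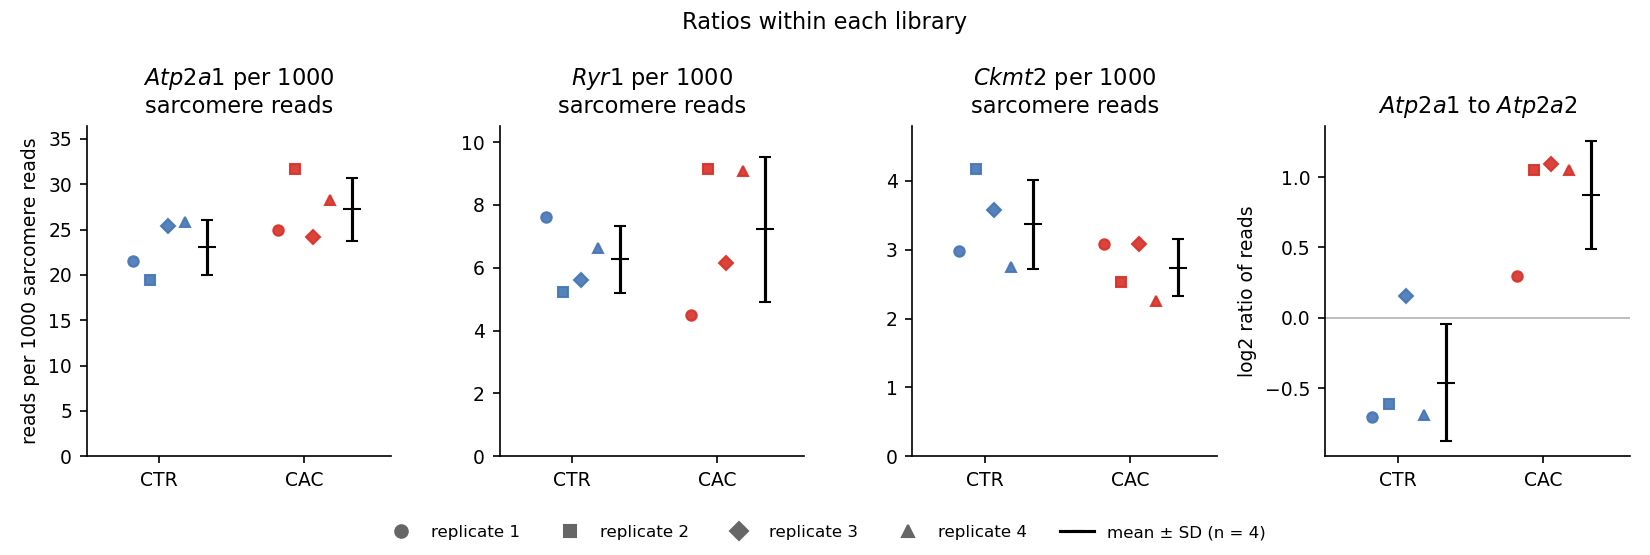
Reads of Atp2a1, Ryr1 and Ckmt2 per 1000 reads of 27 sarcomere genes in the same library (first 3 panels, axes from 0) and the log2 ratio of Atp2a1 to Atp2a2 reads (last panel, grey line at equal reads), with 4 CTR (blue) and 4 CAC (red) libraries and black bars for mean ± SD. The groups overlap in the sarcomere panels and are apart in the pump panel, where CTR reaches 0.16 and CAC starts at 0.29.

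The other 5 pairs had adjusted exact p-values of 0.686 to 0.771. The kinase ratio of Ckmt2 to Ckb differed by 0.51 on the log2 scale (exact p = 0.457), with CTR from -1.89 to 0.26 and CAC from -1.38 to 0.45. Gatm to Gamt differed by 1.17 and Ryr1 to Ryr2 by -0.20, both resting on the few counts of Gatm and Ryr2. Against Ucp1, with means of 3965 ± 186 CPM in CTR libraries and 4059 ± 601 in CAC libraries (SD, n = 4), the log2 ratio of Ckb differed by 0.17 (exact p = 0.457) and that of Atp2a2 by -0.12 (exact p = 0.571).

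The wider creatine pathway was described by a list of 15 partner genes, of which 11 were tested and 0 called, against 0.932% of all tested genes. Their median log2 fold change was -0.05. Ckm, the muscle creatine kinase, had a log2 fold change of 0.97 ± 0.39 (SE) with an unadjusted p of 0.0466 and an edgeR adjusted p of 0.374. DESeq2 also called 0 of the 11. Ckm gave 64.1, 105, 149 and 52.3 CPM in CTR libraries and 111, 187, 213 and 204 CPM in CAC libraries, so CAC replicate 1 was again the lowest of its group and inside the CTR range.

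Regulators of SERCA comprised 11 genes, of which 8 were tested, with a median log2 fold change of 0.11. The 1 called gene was Srl, higher in CAC, which encodes sarcalumenin, a calcium-binding protein of the muscle reticulum. Of all tested genes, 0.739% were called higher. CTR libraries had 13.3, 14.6, 29.0 and 18.1 CPM of it and CAC libraries 31.4, 37.8, 37.8 and 40.8 CPM. The groups did not overlap, and the log2 fold change was 1.01 ± 0.19 (SE, edgeR adjusted p = 0.0114). With the sarcomere covariate the log2 fold change of Srl was 0.59 ± 0.26 (SE, edgeR adjusted p = 0.5), not called. Sln, which encodes the SERCA uncoupler sarcolipin and is named here after its values were seen, had CTR levels of 6.12, 6.13, 6.22 and 0.22 CPM and CAC levels of 4.87, 4.25, 2.05 and 1.74 CPM. Its log2 fold change was -0.54 ± 0.73 (SE, edgeR adjusted p = 0.824), and CTR replicate 4 was the lowest of the 8 libraries.

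Genes of calcium storage and release numbered 15, with 9 tested, 8 of them positive, 0 called by edgeR or DESeq2 and a median log2 fold change of 0.50. Of the 9, 3 were higher and 0 lower with an unadjusted p under 0.05, and 7.01% of all tested genes were higher by that rule. Casq1, the calcium buffer of the fast muscle reticulum, had 7.92, 14.6, 14.5 and 8.16 CPM in CTR and 16.2, 19.7, 26.4 and 19.5 CPM in CAC. These groups did not overlap, and the log2 fold change of 0.90 ± 0.22 (SE) had an edgeR adjusted p of 0.0559. Asph, a reticulum gene whose products include junctin, was at 0.52 ± 0.17 (SE, adjusted p = 0.166). The widely expressed IP3 receptors, named after their values were seen, had log2 fold changes of 0.07 for Itpr1 (edgeR adjusted p = 0.869) and 0.03 for Itpr2 (adjusted p = 0.938).

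For calcium entry, export and mitochondrial uptake, 11 of 14 genes were tested, 0 were called by edgeR or DESeq2, and the median log2 fold change was 0.16. An unadjusted p under 0.05 was found for 1 of the 11, against 12.9% of all tested genes, which is no more than that background. The smallest p-values belonged to Stim2, a sensor of the reticulum's calcium, at 0.46 ± 0.18 (SE, adjusted p = 0.257), and Atp2b1, a calcium pump of the plasma membrane, at 0.25 ± 0.12 (SE, adjusted p = 0.408).

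**Figure D5:**
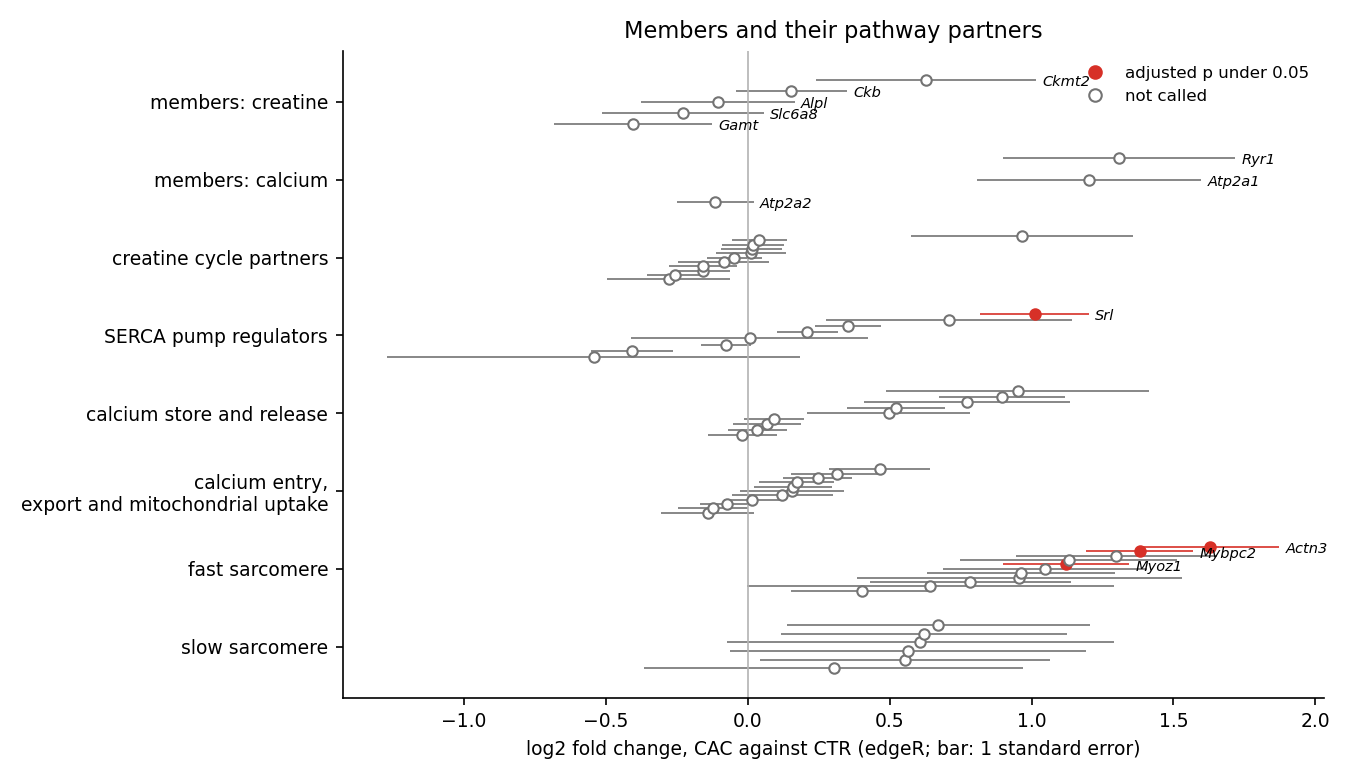
Fitted log2 fold changes of CAC against CTR (horizontal, bars of 1 standard error) for the tested creatine and calcium cycle genes, 4 lists of pathway partners and the fast and slow sarcomere genes, red where the edgeR adjusted p is under 0.05. Ryr1 at 1.31 and Atp2a1 at 1.20 lie among the fast sarcomere genes, with a median of 1.05, while Atp2a2 and the creatine genes other than Ckmt2 lie between -0.40 and 0.15.

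The genes most alike to each member over the 8 libraries, by Pearson r of log2 CPM, were found as a description with no test. After Rabep2, Atp2a1 was most like Cacng6, a calcium channel subunit of muscle, at 0.989 and Tnnt3, fast troponin T, at 0.986. Ckmt2 was most like Des, the intermediate filament desmin of muscle, at 0.983, followed by Ddit4l at 0.963 and Vamp5 at 0.959. Ryr1 was most like Padi2 at 0.985, Tead1 at 0.981 and Slc1a3 at 0.972. Ckb was most like Oaz1-ps, Carf and Nsd1, with r from 0.946 to 0.986, Gamt like Zkscan8, Mtif3 and Tm2d1 (0.951 to 0.981), and Slc6a8 like Peg13, Phyh and Grb2 (0.951 to 0.981). For Alpl they were Smap2, Nmb and Entpd5 (0.949 to 0.966) and for Atp2a2 Tpra1, Cttn and Upp2 (0.935 to 0.963). None of these genes other than Tnnt3 is on the sarcomere list.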

How the data were processed

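BAT RNA of 4 CTR and 4 CAC samples was measured, with groups taken from the labels. The authors checked reads with FastQC 0.11.9, aligned them with HISAT2 2.2.1 to mm10 and counted them with featureCounts, and deposited expected counts per gene, without normalization and with fractions of reads (25.1% to 28.4% of nonzero values). Another table deposited by the authors, from DESeq2, holds a signal: truncated counts divided by 1 size factor per library (100% of 24000 values checked, within 0.01 counts). Gene IDs matched GENCODE M21 without version for 91.4% of IDs, which gave coordinates and exon lengths on GRCm38. No per-sample columns were left unused.

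Counts were rounded and analysed in R 4.3.3 with edgeR 4.0.16 (filterByExpr, TMM, robust quasi-likelihood test without covariates, Benjamini-Hochberg adjustment over 9876 genes, threshold 0.05), and the script was tested on simulated data. The study's methods name DESeq2 and an adjusted p threshold, and give no covariates. Ratios used counts plus 0.5, log2 CPM a prior count of 2, and tests on single values were exact permutation tests over 70 assignments or 40320 orders. Alternatives were DESeq2 1.42.0, limma 3.58.1 on the deposited signal plus 1, other scalings and filters, the replicate number as a block, the sarcomere sum as a covariate, other sarcomere lists and priors, and each library left out. Named genes were all members, from each pathway list the genes with an adjusted p under 0.05 or else the 2 smallest p-values, and the 3 genes most alike to each tested member, with Ucp1 as comparator, and 1 gene that this rule names is not reported here. Members and lists were chosen with earlier results of these data known. Of the remaining marker lists, endothelium (Flt1, 0.53, adjusted p = 0.0166), macrophage (C1qa, 0.83, adjusted p = 0.00103) and brown adipocyte (Ppargc1a, 0.73, adjusted p = 0.0201) each had 1 gene called higher in edgeR. They held 8, 7 and 12 tested genes, and 0.739% of all tested genes were called higher. By unadjusted p under 0.05, endothelium had 1 gene higher and 1 lower (Kdr, -0.32), and macrophage 3 higher and 0 lower. Brown adipocyte had 1 higher and 3 lower by that rule (Plin1 -0.27, Cox7a1 -0.22, Cox8b -0.22), against 12.9% of all tested genes in either direction. Schwann cell, smooth muscle and fibroblast lists had 0 called. Tables and plots used Python 3.11.15 with matplotlib 3.10.9, numpy 2.4.6 and pandas 2.3.3.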

Additional observations from a re-analysis of the deposited data

Results flagged for a closer look

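Within 68 groups of 4 libraries examined (each member, list sum and ratio in CTR and in CAC), 5 held a library that stood apart from the other 3 by more than Dixon's critical share of the group's range, where chance flags about 1 in 20 groups, or 3.4 here. The log2 ratio of Atp2a1 to Atp2a2 accounted for 2 of them. In CTR replicate 3 it was 0.16 and in the other CTR libraries -0.70 to -0.61, and in CAC replicate 1 it was 0.29 and in the other CAC libraries 1.05 to 1.10. CTR replicate 3 also had the highest sarcomere sum of CTR and CAC replicate 1 the lowest of CAC. The calcium store and release list summed to 940.7 CPM in CAC replicate 2, against 822 to 839 CPM in the other CAC libraries. The brown adipocyte list summed to 19322 CPM in CTR replicate 4, against 17302 to 17509 CPM in the other CTR libraries. The Schwann cell list summed to 443 CPM in CAC replicate 1, against 293 to 308 CPM in the other CAC libraries. No cause of these gaps was tested.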

How the results depend on the processing

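The directions of the log2 fold changes of Ckb, Gamt, Slc6a8, Atp2a1, Atp2a2 and Ryr1 held under every alternative run. With the sarcomere covariate Ckmt2 reversed to -0.56 and Alpl to 0.12, and Alpl could not be tested under the filter of 10 counts in every library. The number of genes called was 351 with no filter, 140 with the replicate block and 25 with the sarcomere covariate, and 42 to 135 with 1 library left out. The number of members called was 1 with the replicate block and 0 to 1 with 1 library left out. Of the SERCA regulators, 0 were called with the sarcomere covariate and 1 to 2 with 1 library left out. Of the calcium store and release genes, 1 was called with no filter, 1 with the replicate block and 0 to 1 with 1 library left out. Of the sarcomere genes, 5 were called by DESeq2, 5 with no filter and 11 with the replicate block. With library-size or upper-quartile scaling, the filter of 10 counts in every library or the sarcomere covariate, 2 were called. With 1 library left out 2 to 4 were called. The log2 ratio difference of Ryr1 to Ryr2 reversed to 0.23 with a prior of 2 counts and lay between -0.81 and 0.54 with 1 library left out, that of Atp2a2 to Ucp1 between -0.21 and 0.030, Ckb to Ucp1 0.026 and 0.32, Ckmt2 to Ckb 0.18 and 0.94 and Gatm to Gamt 0.66 and 1.69. Against the slow sarcomere genes alone the log2 ratio differences were 0.52 for Atp2a1, 0.44 for Ryr1 and -0.02 for Ckmt2, none past the threshold. The correlation with the sarcomere sum was 0.787 for Ryr1 with the slow genes (adjusted exact permutation p = 0.0501), and without the 2 farthest libraries 0.949 for Atp2a1, 0.939 for Ryr1, 0.643 for Ckmt2 and, reversed, -0.25 for Atp2a2. With 1 library left out it lay between -0.38 and 0.016 for Ckb, -0.32 and 0.23 for Gamt and -0.50 and 0.22 for Slc6a8, and Gamt reversed to 0.080 with the slow genes. Centred within groups it was 0.946 for Atp2a1, 0.943 for Ckmt2 and 0.819 for Ryr1, none past the threshold after adjustment, and reversed to 0.34 for Gamt and 0.00029 for Slc6a8. The cause of these shifts was not tested.

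The replicate numbers did not pair the samples: same-numbered libraries correlated in their deviations from the group means at 0.031, -0.023, 0.028 and 0.036. With the replicate number as a block, Atp2a1 was at 1.24 on the log2 scale with an edgeR adjusted p of 0.0181, a call, and with 1 library left out it lay between 1.04 and 1.55 with adjusted p-values of 0.0735 to 0.499. Ryr1 lay between 1.14 and 1.56 with 1 library left out, with adjusted p-values of 0.000676 to 0.465, and was called without CAC replicate 1. With 1 library left out Ckb lay between 0.017 and 0.31, Ckmt2 0.35 and 0.90, Gamt -0.60 and -0.18, Slc6a8 -0.34 and -0.017, Alpl -0.24 and -0.026 and Atp2a2 -0.21 and -0.018, none called. Depth limits Gatm and Ryr2, which have at most 6 counts in a library.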
